A study of Mus musculus with 6 samples.

Results

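The fibrillar collagen chains are the products of 9 genes measured here: Col1a1, Col1a2, Col2a1, Col3a1, Col5a1, Col5a2, Col5a3, Col11a1 and Col11a2. The members were taken by gene symbol from the platform annotation. All 9 were present, each with 1 probe, among 16446 genes and 23473 probes in all. Messenger RNA had been profiled on single-colour arrays in hepatic stellate cells, the pericytes of the liver sinusoid. There were 3 arrays of SEPT4-KO mice, which lack the septin Sept4, and 3 arrays of wild type mice. Every mouse of both genotypes had liver cirrhosis induced with CCl4 (carbon tetrachloride), a hepatotoxin, so no array shows an uninjured liver. The strain, age and sex of the mice, the allele, the dose and duration of CCl4, and whether the cells were cultured are not stated in the labels. Nothing says that the arrays came from separate animals or cell isolations, so each p-value covers just the scatter among these samples, and that scatter may be technical.

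Fibrillar collagens are triple helices of alpha chains with repeated glycine, secreted as procollagens and assembled outside the cell into banded fibrils after their propeptides are cut away. Type I collagen is built mostly of paired Col1a1 products with 1 Col1a2 product, type III collagen of Col3a1 products alone, and both are the bulk of the scar in a fibrotic liver. Type V and type XI chains form minor collagens inside the fibrils that help to start them and limit their width, and type II collagen is the main fibril of cartilage. Activated stellate cells, the myofibroblasts of the injured liver, are the best known source of type I and type III collagen there.

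The fibrillar collagen genes differed between the genotypes in opposite directions. Col3a1 was 4.26-fold higher in knockout cells. Col1a1 was 1.37-fold higher, or 1.20-fold after cyclic loess. Both are bright, and of all probes with a mean signal of at least 10, 55.3% were called higher. Col1a2, whose product joins that of Col1a1 in type I collagen, was 2.30-fold lower, and the dim Col11a1 was lower too. In bulk RNA, fewer cells of a type and less RNA per cell cannot be told apart. The type V genes differed little, and Col2a1 and Col11a2 did not pass the test. Of the 9 probes, 4 were higher and 2 lower at an adjusted p of 0.05 in limma. Of all probes 42.7% were called, 26.7% higher and 16.0% lower, and of the brightest probe of each gene 44.3%. The members' count is read against that background and is no result about the set. After quantile normalisation 22.3% of all probes were called higher and 20.2% lower, and after cyclic loess 21.9% higher and 20.7% lower. Of these calls, Col1a1, Col1a2, Col3a1 and Col11a1 kept their direction and passed under every alternative that held their probe, whereas the calls of Col5a1 and Col5a3 did not.

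Promoters of the genes that differed most are shown because they moved in opposite directions. RefSeq's table on GRCm38.p6 gave a promoter for 6 of the 9 members, and those of Col1a1, Col2a1 and Col5a2 were not among them. The bases before the gene's start are printed 5′ to 3′ on the plus strand, at chr1:45311288-45311537 for Col3a1, chr6:4505368-4505617 for Col1a2 and chr3:114030290-114030478 for Col11a1. The first 2 run up to the start, whereas the Col11a1 stretch is 189 bases and ends 61 bases before it. Capitals mark matches, on either strand, to the motifs listed in the next paragraph.
Col3a1: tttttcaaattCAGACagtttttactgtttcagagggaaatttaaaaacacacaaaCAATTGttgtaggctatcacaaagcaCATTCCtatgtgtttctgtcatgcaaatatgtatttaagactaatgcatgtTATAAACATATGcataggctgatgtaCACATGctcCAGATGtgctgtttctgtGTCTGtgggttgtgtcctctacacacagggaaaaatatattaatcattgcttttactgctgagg
Col1a2: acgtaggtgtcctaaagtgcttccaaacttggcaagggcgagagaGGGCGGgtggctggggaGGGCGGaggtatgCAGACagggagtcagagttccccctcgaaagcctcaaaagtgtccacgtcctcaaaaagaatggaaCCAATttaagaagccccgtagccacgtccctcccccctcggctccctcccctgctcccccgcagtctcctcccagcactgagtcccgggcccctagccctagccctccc
Col11a1: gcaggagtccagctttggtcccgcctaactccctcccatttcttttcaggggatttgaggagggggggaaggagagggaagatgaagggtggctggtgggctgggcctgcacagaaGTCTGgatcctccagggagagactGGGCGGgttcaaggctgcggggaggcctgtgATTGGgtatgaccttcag

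The motifs searched in the 250 bases before the start were the CCAAT box (CCAAT), the TATA box (TATAAA), the GC box (GGGCGG), the E-box (CANNTG), the CAGA box (CAGAC), the AP-1 site (TGANTCA) and the MCAT site (CATTCC). The Col1a2 window held 1 CCAAT box, at 109 to 105 bases before the start, with 2 GC boxes and 1 CAGA box. The Col3a1 window held no CCAAT box or GC box, and had 1 TATA box at 117 to 112 bases before the start, 4 E-boxes, 2 CAGA boxes and 1 MCAT site. The Col11a1 window held 1 CCAAT box on the minus strand, 2 GC boxes and 1 CAGA box, and its second GC box, at 19 to 14 bases before the start, lies outside the printed stretch. Of the windows not printed, that of Col5a3 held 1 CCAAT box, 2 GC boxes and 1 E-box. The Col5a1 window held 2 GC boxes and 1 CAGA box, and that of Col11a2 1 TATA box, 2 GC boxes and 1 E-box. Col5a3 and Col5a1 were called higher as deposited, but neither call held under every alternative. Whether any motif goes with the direction of a difference was not tested. No 2 matches overlapped in the printed stretches, although the TATA box of Col3a1 runs straight into an E-box. Of 32851 promoters in the table, 33.8% held a CCAAT box, 12.4% a TATA box, 32.7% a GC box, 66.2% an E-box, 42.2% a CAGA box, 6.75% an AP-1 site and 12.6% an MCAT site. These are matches of letters and show no binding.

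The values are normalised log2 signals, on which 1 unit is a 2-fold difference, and signals of different probes are not compared as amounts of RNA. The array medians lay between 5.01764 and 5.01809, but the highest value of an array was 16.6 to 16.8 in knockout and 15.7 to 15.8 in wild-type arrays. Between 940 and 1255 probes tied at the lowest value of their array, where a level is only a bound. The median difference of all probes, knockout minus wild type, was 0.12, and among the 2313 probes with a mean signal of at least 10 it was 0.24. After quantile normalisation these medians were 0.02 and 0.03, and after cyclic loess 0.01 and 0.02, so small differences of bright probes depend on the scaling. No probe carries the symbol Sept4 in the annotation. Its level was not analysed here and gives no check on the genotypes.

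**Figure D1:**
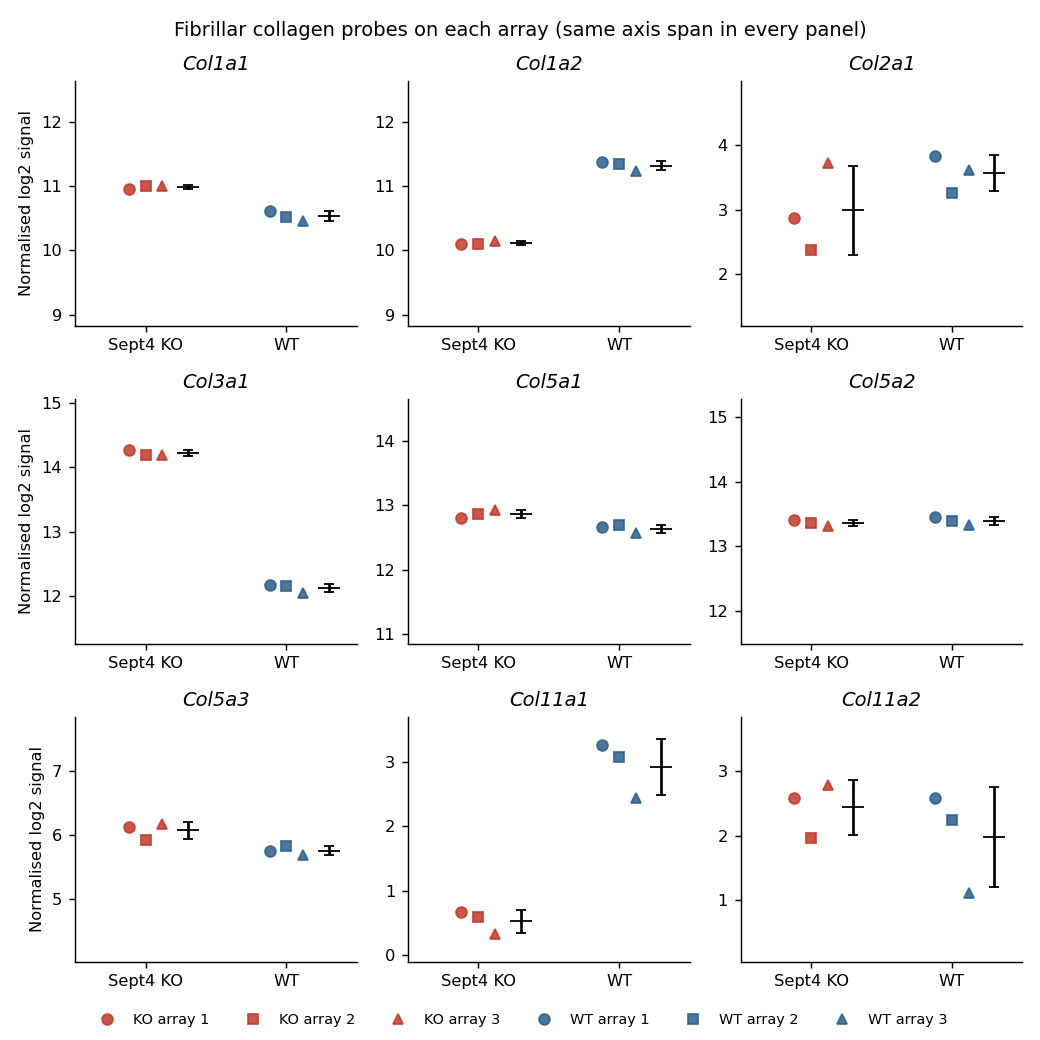
Normalised log2 signal of each fibrillar collagen probe on each array, with Sept4 knockout arrays on the left and wild-type arrays on the right. The axis of every panel has the same length in log2 units but is centred on that gene's own values. Points are arrays, and black bars are the mean ± SD of 3 arrays. Col3a1 is above 14 on all 3 knockout arrays and near 12 on the wild-type arrays, Col1a2 and Col11a1 are lower in the knockout without overlap, and Col2a1, Col5a2 and Col11a2 overlap.

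Col3a1, the sole chain of type III collagen, had log2 signals of 14.27, 14.19 and 14.20 in knockout cells, against 12.17, 12.16 and 12.05 in wild-type cells. The groups were far apart and each was narrow. The log2 difference was 2.09 ± 0.06 (SE, n = 3 each), with an adjusted p of 0.000214 in limma. Relative to the median of the bright probes it was 1.85, and it was 1.84 after quantile normalisation and 1.83 after cyclic loess. It was the 119th highest difference of all 23473 probes and the 4th highest among the 2313 bright ones. Leaving out any 1 array kept it between 2.05 and 2.11.

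Col1a1 encodes the alpha 1 chain of type I collagen. Its log2 signals were 10.95, 11.00 and 11.00 in knockout cells, against 10.61, 10.52 and 10.46 in wild-type cells. The knockout arrays all lay above the wild-type arrays. The difference was 0.45 ± 0.06 (SE, n = 3 each), with an adjusted p of 0.00309 in limma. It was 0.28 after quantile normalisation, 0.26 after cyclic loess and 0.21 relative to the median of the bright probes, among which it was the 687th highest difference.

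Col1a2 encodes the alpha 2 chain, the partner of Col1a1 in type I collagen. Its log2 signals were 10.10, 10.10 and 10.15 in knockout cells, against 11.37, 11.35 and 11.23 in wild-type cells. All knockout arrays lay more than 1 unit below every wild-type array. The difference was -1.20 ± 0.06 (SE, n = 3 each), with adjusted p = 0.000443 in limma, and -1.38 after quantile normalisation. It was the 15th lowest difference among the bright probes, of which 71.7% were called, 16.4% lower and 55.3% higher.

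The type V chains, which nucleate fibrils of type I collagen, showed small differences. Col5a1 had log2 signals of 12.81, 12.86 and 12.93 in knockout cells, against 12.66, 12.69 and 12.57 in wild-type cells. The groups did not overlap, and the difference was 0.23 ± 0.06 (SE, n = 3 each) with an adjusted p of 0.0334 in limma. That is close to the median shift of the bright probes, and relative to it Col5a1 differed by -0.0090. The difference was 0.028 after quantile normalisation (adjusted p = 0.621) and turned to -0.023 after cyclic loess (adjusted p = 0.689), so its direction rested on the scaling.

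Col5a2, the alpha 2 chain of type V collagen, had log2 signals of 13.41, 13.35 and 13.32 in knockout cells, against 13.45, 13.39 and 13.33 in wild-type cells. The groups overlapped, and the difference of -0.028 had a 95% confidence interval of -0.17 to 0.11 and an adjusted p of 0.721 in limma. After quantile normalisation Col5a2 was called lower, with a difference of -0.28 (adjusted p = 0.0115), and cyclic loess gave -0.30 (adjusted p = 0.0108). In RefSeq's gene order no protein-coding gene lies between Col5a2 and Col3a1 on chromosome 1, and their differences as deposited were -0.028 and 2.09.

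Col5a3, a rarer chain of type V collagen, had log2 signals of 6.13, 5.92 and 6.17 in knockout cells, against 5.75, 5.82 and 5.69 in wild-type cells. The groups were separate by a small margin, and the difference was 0.32 ± 0.09 (SE, n = 3 each) with an adjusted p of 0.0353 in limma. It stayed called after quantile normalisation, at 0.27 with an adjusted p of 0.0449. The call was lost without knockout array 1 (adjusted p = 0.0981), knockout array 3 (0.0912), wild-type array 1 (0.0935), wild-type array 2 (0.0662) or wild-type array 3 (0.101). Col5a1 lost its call in the same way without knockout array 2 (adjusted p = 0.0893), knockout array 3 (0.0852), wild-type array 1 (0.0773), wild-type array 2 (0.0655) or wild-type array 3 (0.0855). The number of members called higher was thus 2 or 3 in place of 4 whichever array was left out.

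The type XI genes and Col2a1 are best known from cartilage, and their probes were dim. Col11a1 had log2 signals of 0.66, 0.59 and 0.32 in knockout cells, the last of them the lowest value of its array, against 3.27, 3.07 and 2.44 in wild-type cells. The groups did not overlap, and the difference was -2.40 ± 0.24 (SE, n = 3 each) with an adjusted p of 0.00157 in limma. Near the lowest values the size is imprecise: with a linear offset at the 10th percentile of the signals the difference was -1.40 (adjusted p = 0.00192). Col11a1 was the 40th lowest difference of all probes, and among probes with a mean under 4 only 16.2% were called in either direction.

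Col11a2, the partner of Col11a1 in type XI collagen, had log2 signals of 2.58, 1.96 and 2.78 in knockout cells, against 2.59, 2.24 and 1.10 in wild-type cells. The groups overlapped widely, and the 95% confidence interval of the difference was -0.70 to 1.63. Col2a1, the chain of type II collagen, had log2 signals of 2.88, 2.37 and 3.73 in knockout cells, against 3.83, 3.27 and 3.61 in wild-type cells. Knockout array 3 lay inside the wild-type range, and the difference was -0.58 with an interval of -1.56 to 0.40. Without that array Col2a1 differed by -0.95 (limma, adjusted p = 0.0475). It did not pass with any other array left out, and without knockout array 2 it differed by -0.27 (limma, adjusted p = 0.576).

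**Figure D2:**
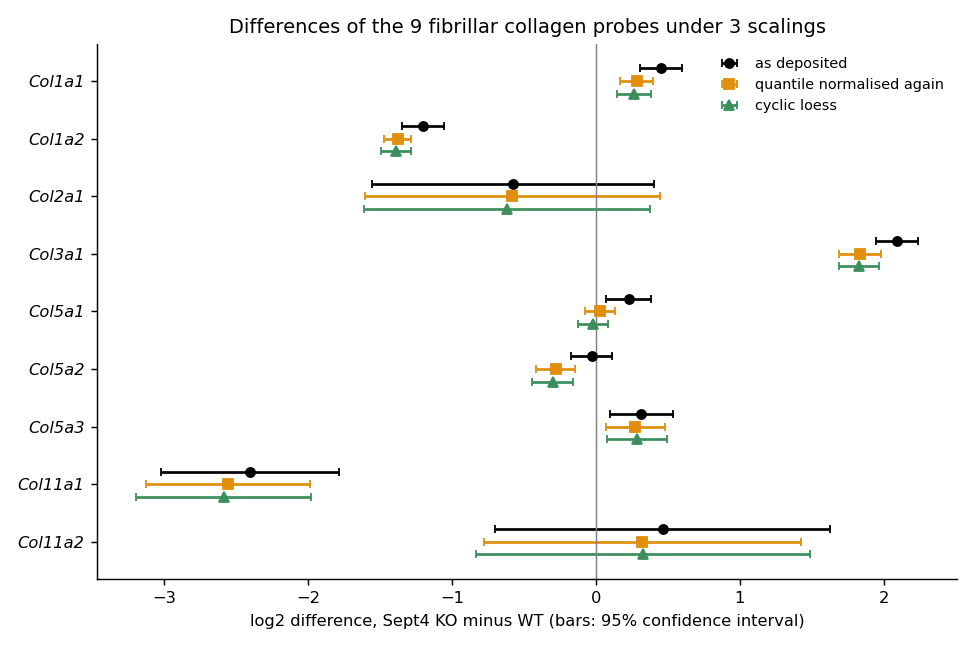
Log2 difference, Sept4 knockout minus wild type, of the 9 probes with the values as deposited (black circles), after a further quantile normalisation (orange squares) and after cyclic loess (green triangles), with 95% confidence intervals. Col3a1, Col1a1, Col1a2 and Col11a1 stay on their side of 0 under all 3, whereas Col5a1 and Col5a2 each reach an interval that includes 0 under at least 1 of them.

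**Figure D3:**
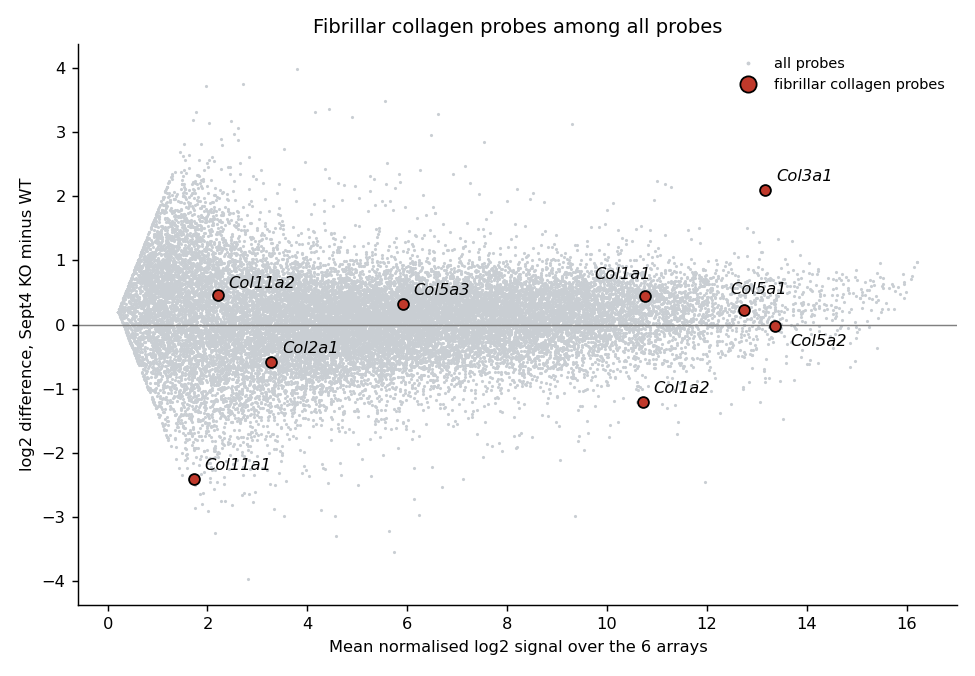
Log2 difference, Sept4 knockout minus wild type, of every probe (grey) against its mean signal over the 6 arrays, with the fibrillar collagen probes in red. Col3a1 stands well above, and Col1a2 below, most probes of like brightness, whereas Col1a1, Col5a1 and Col5a2 lie among them.

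The ratio of 2 chains on the same array does not depend on a shift of the whole array that is equal at all signals. A shift that changes with brightness need not cancel between probes of unlike brightness. The ratio shows unequal change and not which chain is more abundant. Col1a1 minus Col1a2 was 0.85, 0.90 and 0.84 on the log2 scale in knockout cells, against -0.76, -0.83 and -0.77 in wild-type cells. The sign was opposite on every array, and the ratio of the type I chains was 3.14-fold higher in the knockout. The difference was 1.65 ± 0.03 (SE, n = 3 each), and 1.66 after quantile normalisation and 1.65 after cyclic loess.

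Col3a1 minus Col1a1 averaged 3.24 ± 0.08 in knockout cells and 1.60 ± 0.04 in wild-type cells (SD, n = 3 each), a difference of 1.64. After quantile normalisation that difference was 1.55, and after cyclic loess 1.56. Col3a1 minus Col1a2 averaged 4.10 ± 0.07 in knockout cells and 0.81 ± 0.01 in wild-type cells (SD, n = 3 each), so that ratio was 9.79-fold higher. Type III messenger thus gained on both type I chains, and by more on Col1a2.

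Col5a2 minus Col3a1 averaged -0.86 ± 0.02 in knockout cells and 1.26 ± 0.03 in wild-type cells (SD, n = 3 each), a difference of -2.12. Changes between the type V chains, and between type V and type I, were much smaller. Col5a1 minus Col5a2 averaged -0.49 ± 0.11 in knockout cells and -0.75 ± 0.05 in wild-type cells (SD, n = 3 each), a difference of 0.26. Col5a1 minus Col1a1 averaged 1.89 ± 0.05 in knockout cells and 2.11 ± 0.06 in wild-type cells (SD, n = 3 each), a difference of -0.22. After quantile normalisation that difference was -0.26, and after cyclic loess -0.29. The groups did not overlap for any of the 6 pairs compared. They did not overlap for 56.2% of single probes either, but the share over other pairs of probes was not computed. The pairs reuse the same chains, so they are not 6 separate outcomes. Each pair gave an exact two-sided permutation p = 0.1, also after adjustment over the 6 pairs. That is the smallest p that 3 arrays against 3 can give, so the design cannot pass 0.05.

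**Figure D4:**
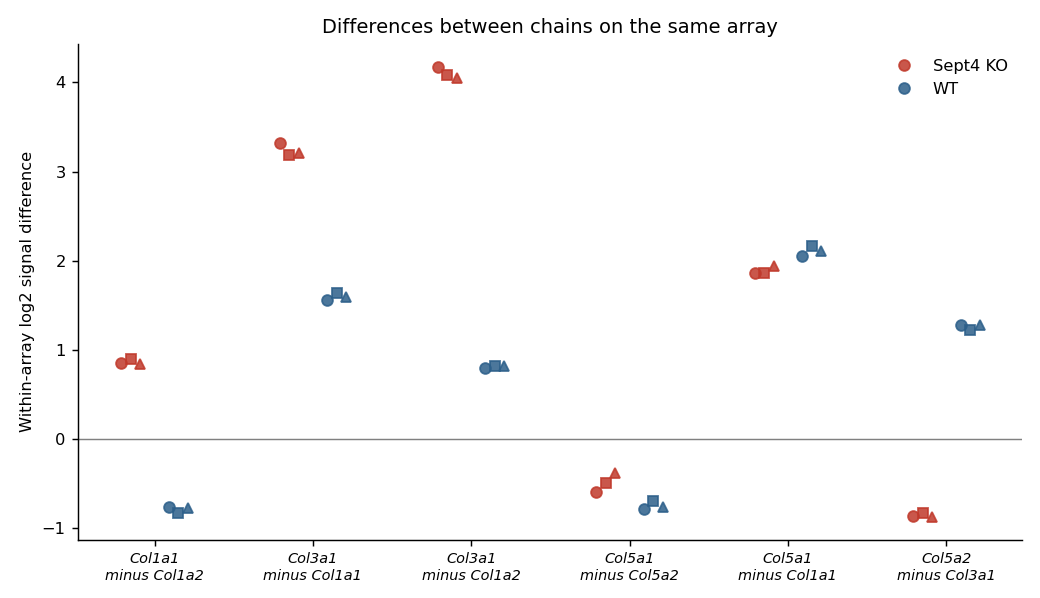
Log2 signal of 1 chain minus that of another on the same array, for 6 pairs of chains, with Sept4 knockout arrays in red on the left of each pair and wild-type arrays in blue on the right. Col1a1 minus Col1a2 and Col5a2 minus Col3a1 have opposite signs in the genotypes, and the pairs with Col5a1 differ by less than 0.3.

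Within the wild-type group, array 3 gave the lowest signal for 8 of the 9 members and for all 5 members with a mean of at least 10. The same array was the lowest of its group for 79.2% of all bright probes. Without it the difference was 2.05 for Col3a1, 0.42 for Col1a1 and -1.24 for Col1a2, and all 3 stayed called. Among knockout arrays, array 1 was lowest for 3 of the 5 bright members and for 67.1% of all bright probes.

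The other collagen genes of the array give a scale for these differences. There were 35 genes with a collagen chain symbol, and Col3a1 had the highest difference and Col11a1 the lowest. Of the 26 that are not members, 8 were called higher and 4 lower, with a median difference of 0.07. Over all genes 29.4% were higher and 14.9% lower, with a median of 0.14, so these counts are no result about collagens. Col1a2 was the lowest among the 6 collagen genes called lower apart from Col11a1. Of the remaining fibrillar collagen genes, Col24a1 was higher by 0.71 ± 0.09 (SE, n = 3 each; limma, adjusted p = 0.00306), and Col27a1 differed by -0.63 (adjusted p = 0.0924).

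The probes most like each main chain were sought among 7715 probes brighter than the median, by the Euclidean distance between log2 profiles centred on their own mean over the 6 arrays. Closest to Col3a1 were Slc43a3 at a distance of 0.107, the complement protease gene Cfd (adipsin) at 0.115, Cygb, which encodes the stellate cell globin cytoglobin, at 0.184, and the fatty acid elongase gene Elovl7 at 0.236. Closest to Col1a2 were the chaperone gene Hsp90ab1 at 0.0447, the scaffold gene Akap12 at 0.0889, the urokinase receptor gene Plaur at 0.0936 and the AP-1 gene Fosl1 at 0.0989. Closest to Col1a1 were Slc33a1 at 0.0283, the respiratory chain gene Ndufa4 at 0.0319, the corepressor gene Ctbp1 at 0.0348 and the splicing factor gene Sf3b5 at 0.0361. With 3 arrays a group, such likeness is set mostly by the difference between the genotypes.

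Genes that modify and fold procollagen are the first of the lists. Of 20 measured, 9 rose and 1 fell, against 29.4% of all genes higher and 14.9% lower, and the list's median was 0.20 against 0.14 over all genes. After quantile normalisation 8 rose and 3 fell, with a median of 0.019, and after cyclic loess 8 rose and 5 fell. Leprel2, a prolyl 3-hydroxylase, rose by 1.33 ± 0.05 (SE, n = 3 each), and Plod2, the lysyl hydroxylase of the telopeptides, was 2.01-fold higher. Ppib, the cyclophilin of the hydroxylase complex, fell by 0.89 ± 0.06, and its second, dimmer probe fell by 1.06. The adjusted p-values of these 3 genes were at most 0.00203 in limma.

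Of 12 genes of propeptide removal 2 rose and 3 fell, and their median was -0.09. Over all genes, the background here and for the lysyl oxidases below, 29.4% were higher and 14.9% lower, with a median of 0.14. Tll1, a tolloid protease of the family that cuts the C-propeptide, averaged 4.75 ± 0.24 in knockout cells and 7.72 ± 0.03 in wild-type cells (SD, n = 3 each). The fall was 7.82-fold, with adjusted p = 0.000377 in limma. Pcolce2, an enhancer of that cleavage, fell by 1.06, and Adamts2, which cuts the N-propeptide, rose by 0.38. Of the 5 lysyl oxidases, which crosslink fibrils, Lox fell by 0.98 and Loxl2 by 0.42, and none rose. After quantile normalisation and after cyclic loess 3 of the 5 fell. The list's median was -0.08 with the brightest probe of each gene and -0.015 with the mean of a gene's probes, and it was -0.19 after quantile normalisation and -0.22 after cyclic loess.

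Among 19 proteoglycans and glycoproteins that bind fibrils, 8 rose and 3 fell, with a median of 0.29, against 29.4% higher, 14.9% lower and a median of 0.14 over all genes. The leucine-rich proteoglycan gene Prelp rose by 1.53 and the thrombospondin gene Thbs2 by 1.46, whereas Thbs1, which activates latent TGF-beta, fell by 1.52. After quantile normalisation 7 rose and 5 fell, and after cyclic loess 5 rose and 5 fell. Of 9 collagens that sit on the fibril surface, 3 rose and 1 fell, with a median of 0.20. Col16a1 rose by 0.91, Col14a1 by 0.64 and Col9a3 by 0.63.

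Of 19 genes of collagen breakdown and uptake 6 rose and 5 fell, with a median of 0.0065. The background here and for the receptors below is 29.4% of all genes higher, 14.9% lower and a median of 0.14. After quantile normalisation 4 rose and 7 fell, and after cyclic loess 4 rose and 8 fell, with a median of -0.26 in both. Mmp8, a collagenase, fell by 1.75, and Timp1, an inhibitor of these proteases, fell by 1.52. Other collagenase genes went both ways: Mmp13 rose by 0.55, to a mean of 11.2 in knockout cells, and the dimmer Mmp1b fell by 0.66. The gelatinase gene Mmp9 rose by 1.59 from dim signals, with 1 wild-type value at its array's minimum, and with the linear offset it rose by 0.82. Of 10 collagen receptors, 2 rose and none fell, with a median of -0.0060. They were the endocytic receptor gene Mrc2, by 1.34 from dim signals (0.81 with the offset), and the integrin gene Itga2, by 0.54. After quantile normalisation 1 receptor gene rose and 1 fell, and Mrc2 no longer passed.

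Of 26 transcription factors that act on fibrillar collagen promoters, 15 rose and 3 fell, with a median of 0.25, beside 29.4% higher, 14.9% lower and a median of 0.14 over all genes. After quantile normalisation 13 rose and 5 fell. Most rises were small: the largest was that of Tcf21, a factor of stellate and other mesenchymal cells, by 0.92. Egr1, an immediate early factor that can activate Col1a2, averaged 7.63 ± 0.03 in knockout cells and 9.38 ± 0.03 in wild-type cells (SD, n = 3 each), and fell by 1.76 (limma, adjusted p = 0.000214). The homeobox gene Msx2 fell by 2.49, to a mean of 2.11 in knockout cells, and by 1.98 with the linear offset.

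**Figure D5:**
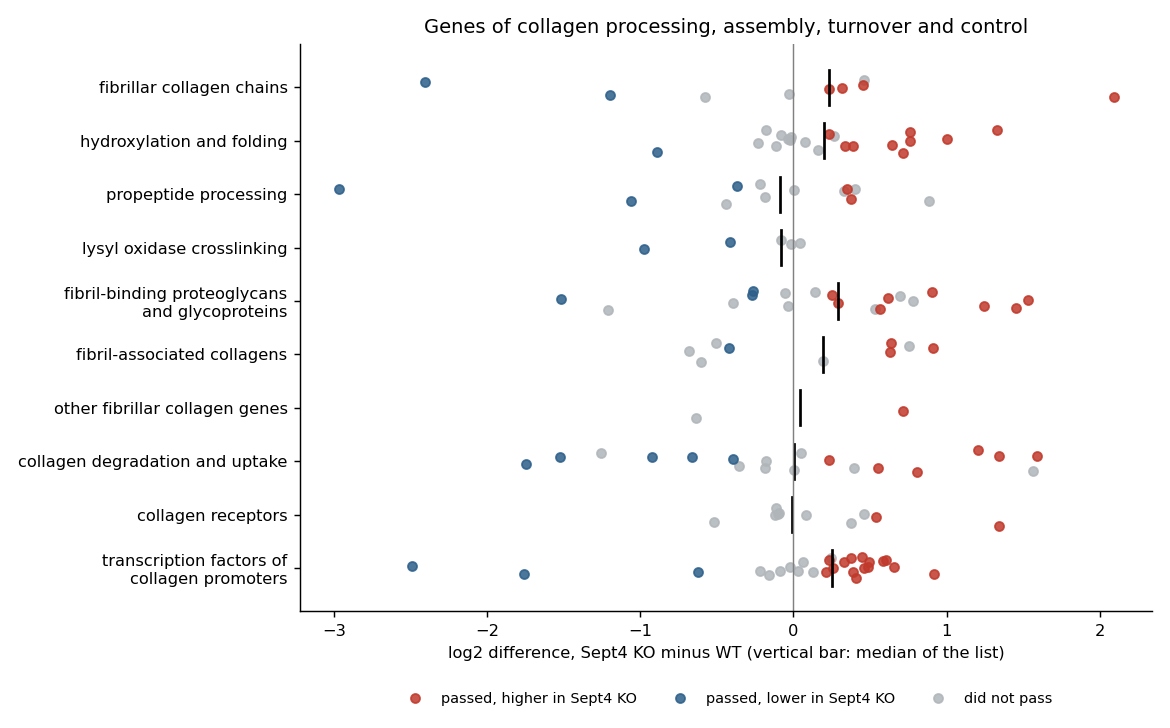
Log2 difference, Sept4 knockout minus wild type, of each measured gene (points) in the fibrillar collagen set and in 9 lists of genes that process, bind, degrade, sense or control collagen; red and blue points passed the test as higher or lower, grey points did not, and black bars are list medians. Col3a1 lies beyond every gene of these lists on the right, and the propeptide protease gene Tll1 is the lowest on the left.

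Markers of the labelled cell type ranged from dim to bright, and their presence was not tested. Lrat, the retinol-esterifying enzyme, averaged 7.46 ± 0.04 in knockout cells and 5.05 ± 0.30 in wild-type cells, the latter close to the array median of 5.02. Desmin (Des) averaged 6.42 ± 0.07 and 6.83 ± 0.13, and smooth muscle actin (Acta2) 14.69 ± 0.05 and 15.25 ± 0.11 (SD, n = 3 each). Reln averaged 5.04 and 5.18, and Ngfr 3.52 and 3.57. Vim averaged 15.8 and 15.2, Lhx2 11.4 and 10.9, and Pdgfrb 9.64 and 9.34. Some markers of other cells were brighter than Lrat and Des. Among them were the brightest macrophage marker, Marco (10.4 and 10.5), and the brightest hepatocyte marker, Fgb (9.40 and 9.37). Others of those lists were dim, such as Itgam (4.12 and 4.14) and Apoa1 (2.70 and 2.73). Signals of different probes do not rank the cell types by amount. Of 12 stellate cell and myofibroblast markers, 7 were higher in the knockout and 3 lower, beside 29.4% and 14.9% of all genes. The contractile gene Tagln averaged 10.74 ± 0.05 in knockout cells and 13.19 ± 0.05 in wild-type cells (SD, n = 3 each), the lowest difference of these markers at -2.45, and Cygb differed by 2.05. The log2 of the summed linear signal was 10.3 to 10.4 in knockout and 10.3 in wild-type arrays for 11 hepatocyte markers, and 11.3 against 11.3 to 11.4 for 11 macrophage markers. It was 8.67 to 8.77 against 8.51 to 8.67 for 11 endothelial, 7.95 to 8.01 against 7.999 to 8.09 for 6 cholangiocyte and 5.52 to 5.98 against 5.03 to 5.46 for 7 lymphocyte markers. A few bright probes carry such sums, and single markers were called both ways. Of the hepatocyte markers Alb1 (0.88), Tdo2 (0.66) and Cps1 (0.35) were higher and Apoh (-0.63) and Ttr (-0.42) lower. Of the macrophage markers Clec4f (0.52) was higher and Emr1 (-1.27) and Cd14 (-1.01) lower. Of the endothelial markers Vwf (2.12, with 1 wild-type value at its array's minimum) and Eng (0.60) were higher and Emcn (-1.63) lower. Sctr (0.60) and the T cell gene Cd3g (1.65, with 2 wild-type values at the minimum) were higher, and Cldn4 (-0.60) and Cd8a (-0.99) lower.

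Portal fibroblasts also make type I and type III collagen. The sum over 10 markers of portal fibroblasts and mesothelial cells was 8.30 to 8.43 in knockout and 8.69 to 8.76 in wild-type arrays, with Entpd2 and Cd34 higher and Thy1 lower. Thy1 averaged 5.02 ± 0.11 in knockout cells and 7.26 ± 0.10 in wild-type cells (SD, n = 3 each). For 10 cartilage markers, relevant to Col2a1 and Col11a1, the sum was 6.88 to 7.03 in knockout and 6.80 to 6.84 in wild-type arrays, and 1 of them, Matn3, was called, as lower. No marker of any list lay at the lowest value on all 6 arrays. The part of other cells in the collagen differences was not tested.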

How the data were processed

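Single-colour arrays of 6 samples were analysed, 3 of SEPT4-KO and 3 of wild type mice, labelled with Cy5 per the labels. The authors deposited 1 table of log2 signals for 23473 probes, quantile normalised per the labels. The arrays do not share 1 distribution, however: the highest values were 16.6 to 16.8 in knockout and 15.7 to 15.8 in wild-type arrays, so the values as deposited are not equal in quantiles across the 6 arrays. The base of the logarithm was inferred from their range, and background correction is not given in the sources used here. The labelling protocol speaks of a microRNA kit and of tumour tissue, which differs from the stated design. Of the probes, 16631 had 1 gene symbol in the platform annotation.

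Differences, knockout minus wild type, were fitted across all probes in limma 3.58.1 (lmFit, then eBayes; R 4.3.3), two-sided, with Benjamini-Hochberg adjustment over all probes, a threshold of 0.05 and no further normalisation. Ratios of chains were tested by exact permutation. The number of arrays limits the precision. In lists, a gene's brightest probe was used. All 9 members were named, with up to 3 genes per list by size among those that passed, and 4 genes most like each of 3 chains. The collagenase genes Mmp13 and Mmp1b were named besides. Members and lists were chosen with earlier results of these data known. Alternatives were quantile normalisation, cyclic loess, a linear offset, filters that drop the dimmest 25% or 50% of probes, a trended and robust prior, array weights, a replicate block, leaving out each array, and the mean of a gene's probes. Promoters came from RefSeq. Figures were drawn with matplotlib 3.10.9.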

Additional observations from a re-analysis of the deposited data

How the results depend on the processing

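Under all 14 alternatives Col1a1, Col1a2 and Col3a1 kept their direction and their call, and Col11a1 did so under the 12 that held its probe. Col5a1 reversed to -0.023 after cyclic loess, and Col5a2 was called lower after quantile normalisation and cyclic loess only. The members called lower numbered 1 in place of 2 without the dimmest 25% and without the dimmest 50% of probes, since Col11a1 then had no place in the fit. Leaving out each array gave 2 to 3 members higher and 2 to 3 lower, and 7954 to 9082 of all probes called in place of 10025.

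With the replicate number as a block, 2 members were higher in place of 4, Col5a1 and Col5a3 having adjusted p-values of 0.115 and 0.113 in limma, and 7724 probes were called. Deviations of same-numbered arrays correlated at 0.00775, -0.00135 and -0.00196, and knockout arrays 2 and 3 did not correlate best with their own number. Knockout array 3 correlated at 0.0108 with wild-type array 2. Such small correlations over all probes cannot settle whether arrays of the same number were paired. The 6 ratios between chains kept their direction under quantile normalisation, cyclic loess and the linear offset. With equal groups the block cannot change their mean difference, and in an exact paired permutation test it gave p = 0.25 for each. Leaving out 1 array cannot reverse a difference between groups that do not overlap, so neither setting tests the direction. Each gene has 1 probe, so a mean of probes changes no ratio. Dim probes limit what can be said of Col2a1, Col11a1 and Col11a2.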
